A study of Mus musculus with 6 samples.

Results

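The genes described here encode adhesion molecules of cultured mouse muscle cells. They are 5 integrin α subunits (Itga3, Itga5, Itga6, Itga7 and Itgav), 2 integrin β subunits (Itgb1 and Itgb5), the integrin-binding adaptor melusin (Itgb1bp2) and 2 cadherins (Cdh2 and Cdh15). They were chosen by gene symbol, with earlier results of these data known, and are 10 of the 24411 symbols in the count tables. All 10 passed the filter on low counts, which kept 13076 genes. The RNA came from C2C12, an established mouse myoblast line that fuses into myotubes when the serum in the medium is lowered. Genotype is given as WT for all 6 libraries. Fully differentiated myotubes were kept for 72 h with the solvent DMSO (3 libraries) or with Sardomozide (3 libraries; the dose is written 10 μm in the labels and read here as µM), an inhibitor of the decarboxylase encoded by Amd1. The labels give the cell type as myoblasts and the titles as myotubes, and nothing in them states that replicates were grown separately. The p-values therefore describe the spread among 6 libraries, part or all of which may be technical. The comparison asks how transcript levels differ with Sardomozide, and these counts do not measure the activity of the enzyme.

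Integrins are receptors made of 1 α and 1 β subunit that join the extracellular matrix to the actin cytoskeleton. The α subunit sets much of the ligand choice: the α3, α6 and α7 chains pair with β1 to bind laminins, the α5 chain pairs with β1 to bind fibronectin, and αv pairs with several β chains, β5 among them, to bind vitronectin. In skeletal muscle α7 with β1 is the main laminin receptor of the fibre. Inside the cell, talin, kindlin and integrin-linked kinase bind the β tail, and melusin binds the β1 tail in striated muscle. Cadherins join cells to each other through calcium-dependent contacts, with catenins on their inner side. N-cadherin and M-cadherin are the best known cadherins of myoblasts and of their fusion.

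The libraries held 25496323 to 36709804 counts, and the 10 genes had 1480 to 70492 counts each in a library. Levels are given as CPM, counts scaled to library size, and the limit that a count of 0 leaves (3 counts) was 0.0817 to 0.118 CPM. Transcripts of 10 of 10 myotube markers were detected, with a summed level of 17777 to 18845 CPM with DMSO and 17385 to 21202 CPM with Sardomozide. One library stood apart in some transcripts: Ttn, the titin gene, had 4042 CPM in Sardomozide replicate 2 and 1371 to 1744 CPM in the other 5. This was not limited to sarcomere genes. Hspg2, a matrix ligand gene named after its values were seen, had 1992 CPM in Sardomozide replicate 2 and 1380 to 1694 CPM in the other 5. The results are therefore also given without that library. Amounts in bulk RNA do not tell fewer cells of a type from less RNA per cell.

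With Sardomozide, Itgb1bp2 fell by 30.9%, Itgav and Itgb5 fell slightly, and Itga6 rose. The other 6 genes did not pass the test. The quasi-likelihood test of edgeR, adjusted by Benjamini-Hochberg over 13076 genes, called 4 of the 10 at an adjusted p under 0.05, where 16.3% of all genes tested were called. Of these 4, 1 was higher (7.88% of all genes) and 3 were lower (8.45%). The 10 were abundant, with a mean CPM above that of 74.0% (Itga6) to 99.7% (Itga7) of genes tested. The share over all genes is thus not one of equally abundant genes. With a filter that kept genes with a mean CPM of at least 10, 1912 of 9160 genes were called, and 5 of the 10. CPM values of the groups did not overlap for 7 of the 10, against 33.5% of all genes tested. Of those 7, 2 were higher with Sardomozide (17% of all genes) and 5 lower (16.5%). The median log2 fold change of the 10 was −0.069, and that of all genes tested was −0.00082. The median size regardless of sign was 0.12 for both. Without Sardomozide replicate 2 the same 4 genes passed and Cdh2 passed as well. Without DMSO replicate 1 or without DMSO replicate 3, 2 of the 10 passed, Itga6 and Itgb1bp2. Without Sardomozide replicate 3, 3 passed: those 2 and Cdh15.

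**Figure D1:**
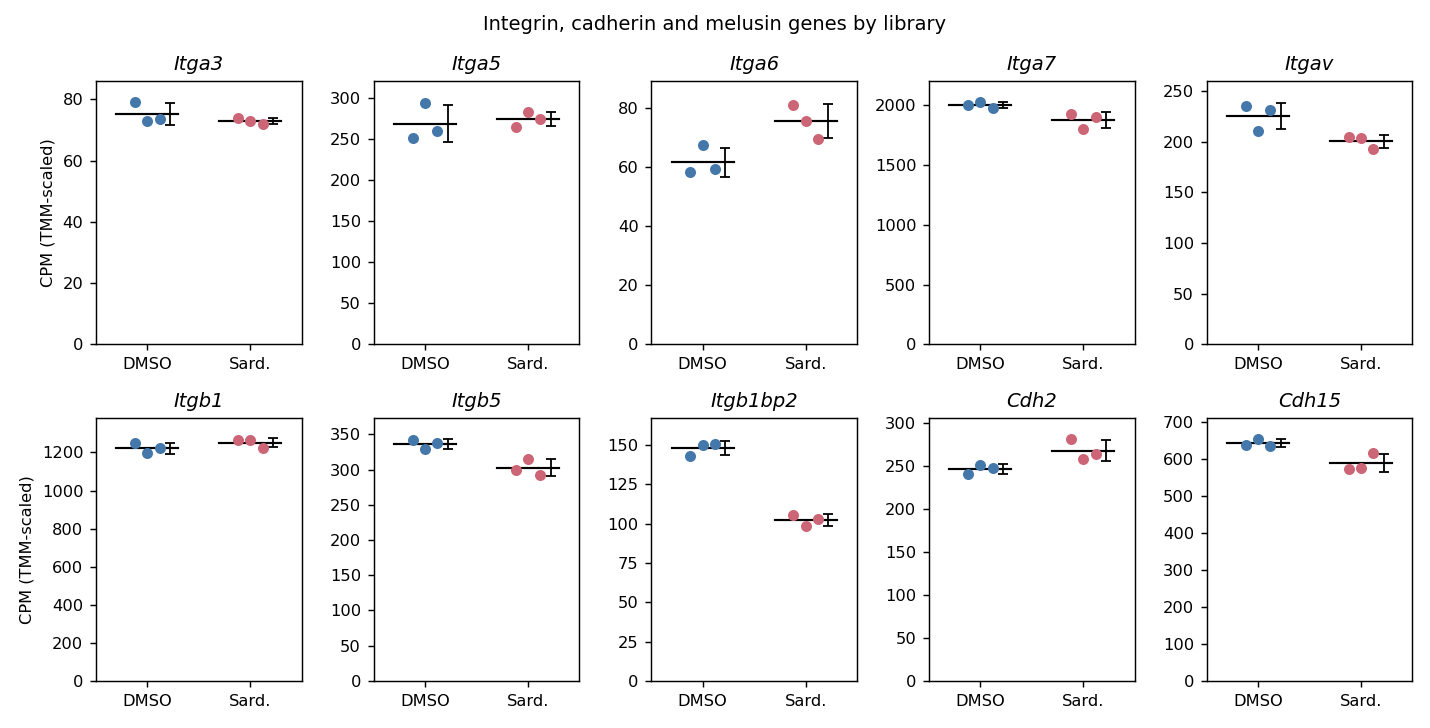
CPM (vertical axes, starting at 0) of the 10 genes in the 3 DMSO libraries (blue) and the 3 Sardomozide libraries (Sard., red). Each point is a library, horizontal lines are means and error bars are SD. Itgb1bp2 shows the largest change relative to its level, from 148 to 102 CPM.

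Levels between genes were compared per kilobase of annotated exons. In the DMSO libraries the order ran from Itgb1 (299.6 ± 6.94 CPM per kb, SD, n = 3) through Itga7 (248 ± 3.04) and Cdh15 (197 ± 3.35) to Itgb5 (94.7 ± 1.95) and Itgb1bp2 (82.3 ± 2.4). Itga5 followed at 54.5 ± 4.61 CPM per kb, then Cdh2 at 30.6 ± 0.686, Itgav at 21.0 ± 1.19, Itga3 at 13.2 ± 0.612 and Itga6 at 6.82 ± 0.543. No 2 neighbours in this order overlapped over the 3 DMSO libraries. The order of the means was the same with Sardomozide, where Itgb1bp2 (54.7 to 58.8 CPM per kb) and Itga5 (53.8 to 57.3) overlapped. With the length of the longest transcript in place of the union of exons, Itga7 (499 CPM per kb) stood above Itgb1 (320), and Itgb1bp2 (113) above Itgb5 (103). Of the 5 α subunits, Itga7 made up 72.2 ± 0.567% of the level per kb with DMSO and 70.9 ± 1.13% with Sardomozide, or 80.3% and 79.2% with longest transcripts. The 7 integrin subunits among the 10 genes held 93.6 to 94.9% of the CPM of all 26 integrin subunit genes in a library.

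**Figure D2:**
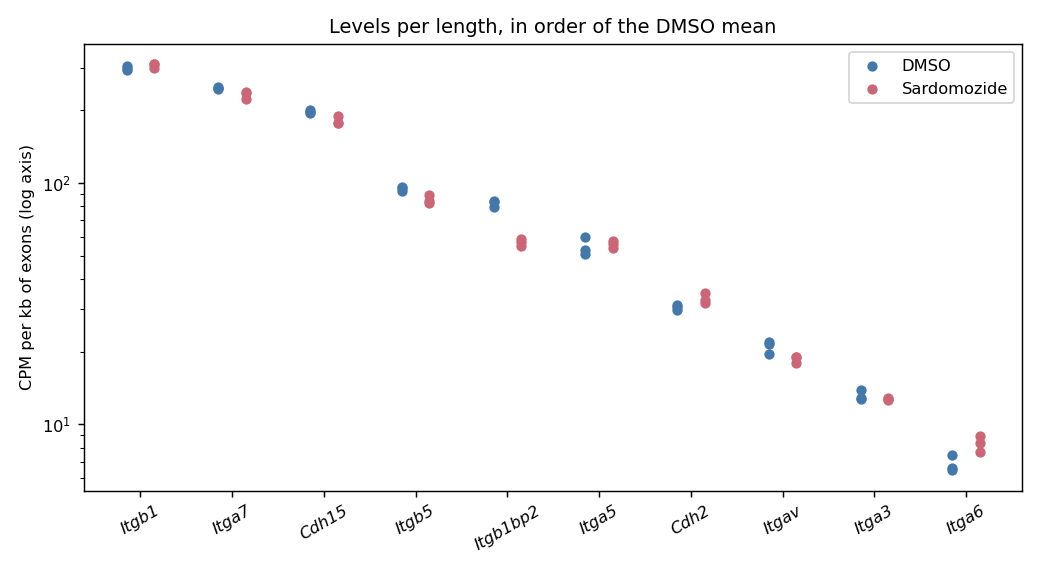
CPM per kb of exons (log axis) for each gene in the 3 DMSO (blue) and 3 Sardomozide (red) libraries, ordered by the DMSO mean. Mean DMSO values run from 299.6 for Itgb1 to 6.82 for Itga6, and the order of the means is the same in both groups.

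Among the laminin receptor genes only Itga6 passed the test. Itga7 (chromosome 10, 128933818 to 128958282, build GRCm38), the α chain of the muscle laminin receptor, had 2007, 2029 and 1980 CPM with DMSO and 1932, 1803 and 1904 CPM with Sardomozide. All 3 Sardomozide libraries lay below all 3 DMSO libraries, by a small margin. Its log2 fold change was −0.093 ± 0.044 (SE), with a 95% interval of −0.19 to −0.0012 and an edgeR adjusted p of 0.163, so the gene did not pass. Mettl7b, which overlaps it on the opposite strand, had 0 to 2 counts in a library. Gm25494, which overlaps it on the same strand, has no row in the counts.

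Itga6 (chromosome 2, 71745616 to 71858416), the α chain of a laminin receptor that many cell types share, had 58.2, 67.2 and 59.3 CPM with DMSO. With Sardomozide it had 81.0, 75.6 and 69.5 CPM. The highest DMSO library lay just under the lowest Sardomozide library, so the groups did not overlap but came close. The rise was 22.4% (log2 fold change 0.29 ± 0.064, edgeR adjusted p = 0.0039), and it passed in each of the 6 fits that left out a library, with log2 fold changes of 0.24 to 0.36. This change was larger in size than that of 82.1% of all genes tested. Gm13663 and Gm13662 overlap Itga6 on the same strand and have no row in the counts, so shared reads could not be checked.

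Itga3 (chromosome 11, 95044474 to 95076801), another laminin-binding α chain, had 79.3, 72.9 and 73.6 CPM with DMSO and 73.8, 73.0 and 71.9 CPM with Sardomozide. These groups overlapped, and the log2 fold change of −0.045 had a 95% interval of −0.15 to 0.06 (edgeR adjusted p = 0.601). Itgb1 (chromosome 8, 128685654 to 128733200), the β chain that pairs with all these α chains, had 1251, 1195 and 1222 CPM with DMSO and 1266, 1265 and 1223 CPM with Sardomozide. Here too the groups overlapped, and the 95% interval of the log2 fold change was −0.055 to 0.12 (edgeR adjusted p = 0.654).

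The fibronectin receptor gene Itga5 and the pair Itgav and Itgb5 differed in outcome. Itga5 (chromosome 15, 103344286 to 103366763) had 251, 294 and 260 CPM with DMSO and 265, 283 and 275 CPM with Sardomozide, with the Sardomozide libraries inside the DMSO range. Its log2 fold change of 0.028 had a 95% interval of −0.081 to 0.14 (edgeR adjusted p = 0.77), and its sign turned without DMSO replicate 1 (−0.017). Itgav (chromosome 2, 83724397 to 83806916), the α chain of the vitronectin receptors, had 235, 211 and 231 CPM with DMSO and 204, 204 and 193 CPM with Sardomozide. Its groups did not overlap, and it fell by 11.2% (log2 fold change −0.17 ± 0.046, edgeR adjusted p = 0.015). Itgb5 (chromosome 16, 33829665 to 33949338), a β partner of αv, had 342, 329 and 338 CPM with DMSO and 299.6, 316 and 293 CPM with Sardomozide. It too had no overlap, and fell by 10.03% (log2 fold change −0.15 ± 0.043, edgeR adjusted p = 0.0178). Both falls were small, and both calls were lost without DMSO replicate 1 (adjusted p = 0.098 for Itgav and 0.0854 for Itgb5), DMSO replicate 3 (0.0773 and 0.0721) or Sardomozide replicate 3 (0.078 and 0.086).

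The 250 bases before the RefSeq start of Itgav and Itgb5 are shown because the gene pair fell by similar amounts. Capitals mark the E-box (CANNTG, the same on both strands), a motif read by myogenic bHLH factors, and the GC-box (GGGCGG on either strand). Both windows are on the plus strand of GRCm38.p6, at chr2:83724147-83724396 and chr16:33829415-33829664.
Itgav: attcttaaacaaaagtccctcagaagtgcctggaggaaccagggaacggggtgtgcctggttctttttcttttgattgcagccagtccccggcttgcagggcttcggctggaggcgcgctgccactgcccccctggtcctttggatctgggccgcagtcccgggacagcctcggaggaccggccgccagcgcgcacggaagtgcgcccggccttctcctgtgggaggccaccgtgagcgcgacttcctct
Itgb5: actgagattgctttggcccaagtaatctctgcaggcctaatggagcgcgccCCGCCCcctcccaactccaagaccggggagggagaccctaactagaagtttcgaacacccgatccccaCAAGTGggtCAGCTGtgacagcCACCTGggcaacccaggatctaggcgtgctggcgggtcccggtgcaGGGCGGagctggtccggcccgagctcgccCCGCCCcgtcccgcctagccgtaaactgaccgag
The Itgav window held 0 of either motif. The Itgb5 window held 3 E-boxes, at −131, −122 and −109 from the start, and 3 GC-boxes, at −199, −63 and −34, with no overlap between them. Of 32817 windows of this length in the RefSeq table, 66.2% held an E-box and 32.7% a GC-box. GC content was 64.4% for Itgav and 65.2% for Itgb5, and each window held 18 CpG dinucleotides. No MEF2 box (0.509% of windows), CArG box (1.47%), MCAT motif CATTCC (12.6%) or TATAAA (12.4%) was found in either window, on either strand. Such matches describe the letters only. RefSeq windows were matched for 6 of the 10 genes, the others being Itga6, Itga7, Itgb1bp2 and Cdh2.

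The adaptor gene Itgb1bp2 (chromosome X, 101449088 to 101453541) had the largest change of the 10. Melusin, its product, is a muscle protein with chaperone-like CHORD domains that binds the β1 tail and takes part in the response of heart muscle to load. DMSO libraries had 143, 150 and 151 CPM, and Sardomozide libraries 106, 98.5 and 103 CPM. The groups lay far apart relative to the spread within each. The log2 fold change was −0.53 ± 0.045 (edgeR adjusted p = 9.62e-08), ranking 18 of 13076 genes by adjusted p, and larger in size than that of 92.8% of genes tested. Over the fits that left out a library the log2 fold change ran from −0.56 to −0.51, and each of them called it. The genes whose log2 CPM most resembled that of Itgb1bp2 over the 6 libraries, among 10278 compared, were Pfkm, the muscle phosphofructokinase gene (r = 0.998), Mustn1, a small muscle nuclear protein gene (r = 0.997), and Tcap, the telethonin gene (r = 0.997). Pfkm had 839 ± 24.5 CPM with DMSO and 657 ± 17.3 CPM with Sardomozide, Mustn1 181 ± 6.34 and 133 ± 5.97 CPM, and Tcap 72.5 ± 2.8 and 40.1 ± 0.927 CPM (SD, n = 3). These correlations are descriptions over 6 libraries that share 1 treatment contrast, and 257 genes had r above 0.95.

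The cadherin genes differed in opposite directions, and neither passed the test. Cdh15 (chromosome 8, 122847966 to 122867397), which encodes M-cadherin of myoblasts and satellite cells, had 638, 654 and 634 CPM with DMSO and 574, 575 and 617 CPM with Sardomozide. The DMSO libraries all lay above the Sardomozide libraries, with Sardomozide replicate 3 closest to them. Its log2 fold change was −0.12 ± 0.043 with an edgeR adjusted p of 0.054. DESeq2 (adjusted p = 0.0294), limma-voom (0.0454), the stricter filter (0.0472) and the fit without Sardomozide replicate 3 (0.0324) called it. The protein-coding gene Gm20388 overlaps Cdh15 on the same strand and has no row in the counts, so shared reads could not be checked. Cdh2 (chromosome 18, 16588877 to 16809246), the N-cadherin gene, had 241, 252 and 248 CPM with DMSO. With Sardomozide it had 282, 258 and 264 CPM, above every DMSO library. Its log2 fold change was 0.12 ± 0.044 with an edgeR adjusted p of 0.0705, and it passed without Sardomozide replicate 2 (0.0392).

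**Figure D3:**
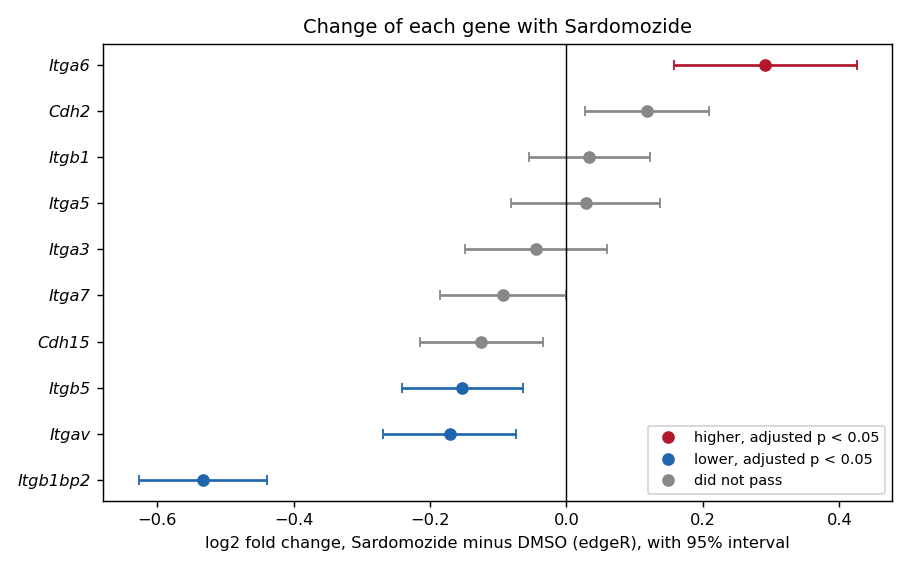
Log2 fold change of each gene (Sardomozide minus DMSO, edgeR) with its 95% interval, ordered by value. Itga6 (0.29) is the one called rise, Itgb1bp2 (−0.53), Itgav (−0.17) and Itgb5 (−0.15) are the called falls, and the other 6 did not pass.

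Ratios between genes within a library do not depend on how libraries are scaled. Of 7 ratios compared, 5 did not overlap between the groups, and each of those 5 had an exact two-sided permutation p of 0.1 (0.14 after Benjamini-Hochberg adjustment over the 7). With 3 libraries against 3, this permutation test cannot give a lower p. The share of other gene pairs without overlap was not computed, and 33.5% of single genes tested had no overlap. Each of the 5 ratios holds a gene whose own groups did not overlap, so the ratios are not separate results. For each count of Itga6 there were 34.5, 30.2 and 33.4 counts of Itga7 with DMSO and 23.8, 23.8 and 27.4 with Sardomozide. This ratio of the laminin-binding α chains was lower in all 3 Sardomozide libraries than in any DMSO library. Itga6 to Itga3 was 0.821 ± 0.0944 with DMSO and 1.03 ± 0.0658 with Sardomozide (SD, n = 3). Itgb1bp2 to Itgb1, the adaptor relative to the β chain it binds, was 0.114, 0.126 and 0.123 with DMSO and 0.0835, 0.0779 and 0.084 with Sardomozide. Itgb1 to Itgb5 was 3.63 ± 0.0199 with DMSO and 4.14 ± 0.117 with Sardomozide. Cdh15 to Cdh2 was 2.65, 2.6 and 2.56 with DMSO and 2.04, 2.23 and 2.33 with Sardomozide, lower in every Sardomozide library than in any DMSO library. The ratio of Itgav to Itgb5 was 0.67 ± 0.0247 and 0.662 ± 0.0188 (exact permutation p = 0.7), and that of Itga7 to Itga5 was 7.49 ± 0.556 and 6.87 ± 0.455 (exact permutation p = 0.3), each with overlap.

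**Figure D4:**
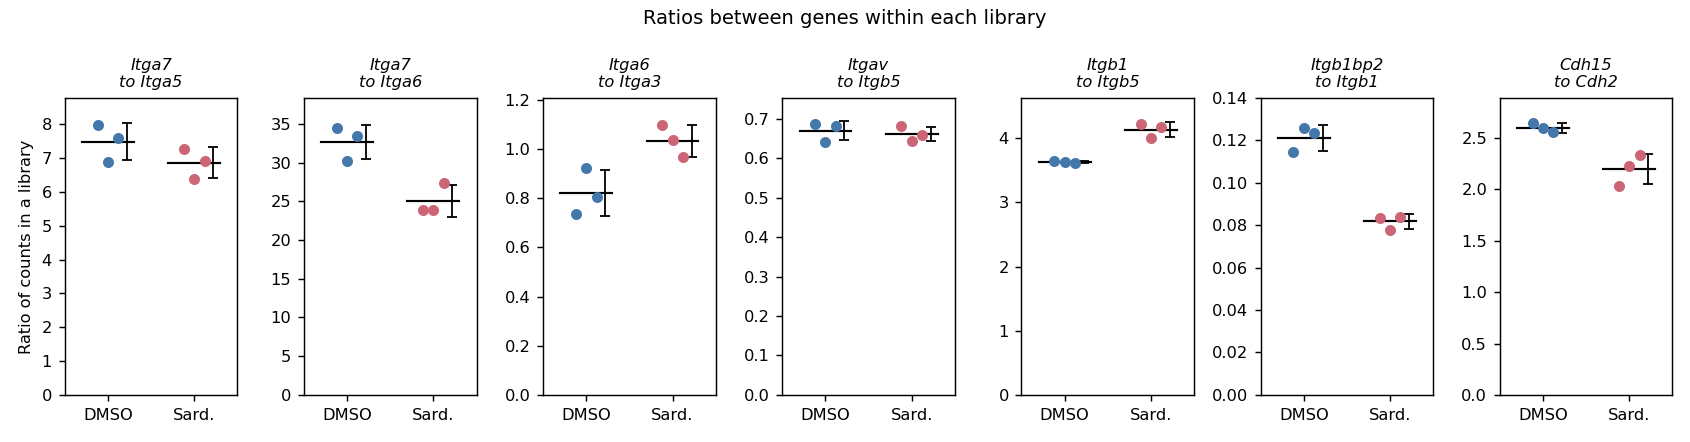
Ratio of the counts of 2 genes within each library (vertical axes, starting at 0) for 7 gene pairs in the 3 DMSO (blue) and 3 Sardomozide (Sard., red) libraries, with means and SD. The groups do not overlap for 5 pairs and overlap for Itga7 to Itga5 and Itgav to Itgb5. The share of other gene pairs without overlap was not computed.

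The list of other integrin genes held 20, of which 1, Itgbl1, encodes an integrin-like secreted protein and no subunit. Of the 20, 16 were tested, 2 were higher, 4 lower and 10 did not pass, with a median log2 fold change of −0.24. Over all genes tested, 7.88% were higher and 8.45% lower. Itga4, the α4 chain that binds fibronectin and VCAM1, had 38.9, 40.5 and 40.8 CPM with DMSO and 28.6, 29.2 and 25.1 CPM with Sardomozide (edgeR adjusted p = 2.26e-05). Itgb3, another β partner of αv, had 52.4, 43.0 and 40.4 CPM with DMSO and 31.4, 32.2 and 30.7 CPM with Sardomozide (edgeR adjusted p = 0.000216). Both groups of libraries were fully separate for Itga4 and Itgb3. The β chain genes Itgb6 (46.6 CPM with DMSO and 46.4 with Sardomozide) and Itgb8 (4.64 and 4.03 CPM) did not pass (edgeR adjusted p = 0.949 and 0.48). They were named after their values were seen. Itga10, a collagen-binding α chain, fell to 4.59 ± 1.12 CPM from 8.04 ± 0.43 (SD, n = 3; log2 fold change −0.80 ± 0.16). Itgal, the α chain of a leukocyte integrin, rose from 0.485 ± 0.233 to 1.96 ± 0.426 CPM, on 9 to 19 counts in a DMSO library and 52 to 74 in a Sardomozide library. Itgam also rose, from 0.428 to 1.12 CPM (edgeR adjusted p = 0.0268), and is named after its values were seen because it is a leukocyte marker. Itgb2, the β partner of both these leukocyte chains and a marker in the same list, had 0.538 and 0.489 CPM and did not pass (log2 fold change −0.17, edgeR adjusted p = 0.865). Itgbl1 (like Itgb2 named after its values were seen) fell from 1.42 to 0.468 CPM (edgeR adjusted p = 0.0121) and is 1 of the 4 lower genes. Summed over 6 leukocyte markers, Itgam among them, levels were 2.24 to 2.86 CPM with DMSO and 3.42 to 3.81 CPM with Sardomozide, with the pan-leukocyte gene Ptprc and the macrophage gene Adgre1 at 0 counts in all 6 libraries. Without DMSO replicate 1, DMSO replicate 2 or Sardomozide replicate 1, 1 gene of the integrin list was higher.

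Genes of the integrin adaptors and of focal adhesions were mostly lower where they passed. Of 34 tested, 2 were higher, 14 were lower and 18 did not pass (7.88% higher and 8.45% lower over all genes tested). The median log2 fold change was −0.13, and 12 to 14 were lower whichever library was left out. Zyx, the gene of zyxin at adhesions under tension, had 671, 666 and 648 CPM with DMSO and 540, 537 and 543 CPM with Sardomozide (log2 fold change −0.29 ± 0.041, edgeR adjusted p = 5.18e-05). Ptk2b, which encodes the focal adhesion kinase relative PYK2, fell from 24.3 ± 1.66 to 15.7 ± 1.42 CPM, and Tns2, a tensin gene, from 141 ± 2.13 to 117 ± 5.26 CPM (SD, n = 3; edgeR adjusted p = 6.23e-05 and 0.000364). Enah, whose product promotes actin filament growth, had 319, 333 and 343 CPM with DMSO and 414, 393 and 395 CPM with Sardomozide (log2 fold change 0.27 ± 0.043, edgeR adjusted p = 0.000161). In this list 1 gene was higher when DMSO replicate 1, DMSO replicate 3, Sardomozide replicate 1 or Sardomozide replicate 2 was left out. These counts describe the list and were not tested against other genes.

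The melusin partner list held 6 tested chaperone genes, of which 2 were higher and 0 lower by edgeR (median log2 fold change 0.053). Over all genes tested, 7.88% were higher and 8.45% lower. Hsp90aa1, an HSP90 gene, and Ptges3, the gene of its co-chaperone p23, rose by 0.13 ± 0.043 and 0.14 ± 0.041 on the log2 scale (SE; edgeR adjusted p = 0.0461 and 0.0234). By edgeR 0 passed when DMSO replicate 1, DMSO replicate 2, DMSO replicate 3 or Sardomozide replicate 3 was left out, and 1 was higher and 1 lower without Sardomozide replicate 1. With the replicate number as a block, 0 were higher. At an unadjusted p under 0.05, 2 were higher and 2 lower, and the share of all genes tested at that threshold is not given here. The 2 lower were Hsp90ab1 and Sugt1, both named after their values were seen. Hsp90ab1, the more abundant HSP90 gene, had 3119 CPM with DMSO and 2914 with Sardomozide, without overlap (edgeR adjusted p = 0.148). Sugt1 had 65.8 and 61.0 CPM, also without overlap (edgeR adjusted p = 0.162). DESeq2 and limma-voom each called 0 lower.

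Among matrix ligands of integrins, 22 were tested, 0 were higher by edgeR and 5 were lower (7.88% and 8.45% over all genes tested). The median log2 fold change was −0.084. DESeq2 and limma-voom also called 0 higher. At an unadjusted p under 0.05, 2 were higher and 5 lower, with no share over all genes given at that threshold. Lamb3, a laminin β chain gene, had 110, 102 and 109 CPM with DMSO and 66.7, 66.1 and 72.5 CPM with Sardomozide (edgeR adjusted p = 4.75e-08). Thbs1, the thrombospondin gene, fell from 2332 ± 221 to 1829 ± 108 CPM, and Spp1, the osteopontin gene, from 809 ± 92 to 532 ± 50.6 CPM (SD, n = 3; edgeR adjusted p = 0.00179 and 0.00686). Agrn, the agrin gene, fell by 14.3% (edgeR adjusted p = 0.00169). Lama2, the laminin α chain gene of the muscle basement membrane, and Fn1, the fibronectin gene, did not pass (edgeR adjusted p = 0.322 and 0.725). These last 2 genes were named for their roles after their values were seen. Without Sardomozide replicate 1, 3 ligand genes were lower and Spp1 lost its call (adjusted p = 0.0686), and without Sardomozide replicate 2, 8 were lower.

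Of the other cadherin genes 8 were tested, and by edgeR 0 were higher and 0 lower (7.88% and 8.45% over all genes tested). DESeq2 and limma-voom also called 0 in either direction. At an unadjusted p under 0.05, 0 were higher and 1 lower, with no share over all genes given at that threshold. Cdh13, the gene of a cadherin held by a lipid anchor, had 239 ± 5.05 CPM with DMSO and 215 ± 22.7 CPM with Sardomozide (SD, n = 3; edgeR adjusted p = 0.102), and it passed without Sardomozide replicate 1 (0.000585). Cdh1, the E-cadherin gene, had 4.73 ± 0.378 and 5.81 ± 0.666 CPM (edgeR adjusted p = 0.19). Of 13 catenin and cadherin partner genes, 4 were lower and 0 higher by edgeR (8.45% and 7.88% over all genes tested). Their median log2 fold change was −0.038, and 0 were higher by DESeq2, by limma-voom or at an unadjusted p under 0.05. Jup, which encodes plakoglobin, a catenin of cadherin junctions, had 542, 549 and 537 CPM with DMSO and 409, 403 and 401 CPM with Sardomozide (log2 fold change −0.42 ± 0.04, edgeR adjusted p = 3.7e-07). The spread within each group was far smaller than this gap, and the call held without each library in turn. Ctnnal1, Mllt4 (afadin) and Vezt (vezatin) fell with edgeR adjusted p of 0.0397, 0.0397 and 0.0364. Of the 6 fits that left out a library, Vezt passed in 0, and Ctnnal1 and Mllt4 in 1 each. In those fits 1 or 2 genes of the list were lower. Mllt4 did not pass with DESeq2. The central catenin genes Ctnnb1, Ctnna1 and Ctnnd1 did not pass (edgeR adjusted p = 0.748, 0.31 and 0.588), and were named for their roles after their values were seen.

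Of 21 genes of myoblast fusion and cell contact, 1 was higher, 4 were lower and 16 did not pass (median log2 fold change −0.062). Over all genes tested, 7.88% were higher and 8.45% lower. Ncam1, a neural cell adhesion molecule of myoblasts and myotubes, rose from 1147 ± 25.1 to 1284 ± 38.5 CPM (SD, n = 3; edgeR adjusted p = 0.0137). Cd151, a tetraspanin gene whose product binds laminin-binding integrins, had a log2 fold change of −0.26 ± 0.047, and Kirrel, a nephrin family adhesion gene, one of −0.27 ± 0.056 (edgeR adjusted p = 0.000622 and 0.00297). Boc, a co-receptor bound to cadherins in myoblasts, fell with an adjusted p of 0.0182. The membrane fusion genes Tmem8c (myomaker) and Gm7325 (myomixer) did not pass (edgeR adjusted p = 0.0574 and 0.152), and were named for their roles after their values were seen. Without DMSO replicate 1, 0 of this list were higher and 2 lower, without DMSO replicate 3, 0 were higher, without DMSO replicate 2, 2 were higher, without Sardomozide replicate 1, 2 were higher and 2 lower, and without Sardomozide replicate 3, 2 were lower. Ncam1 lost its call without DMSO replicate 1 or 3. Boc lost its call without DMSO replicate 1, DMSO replicate 3, Sardomozide replicate 1 or Sardomozide replicate 3.

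**Figure D5:**
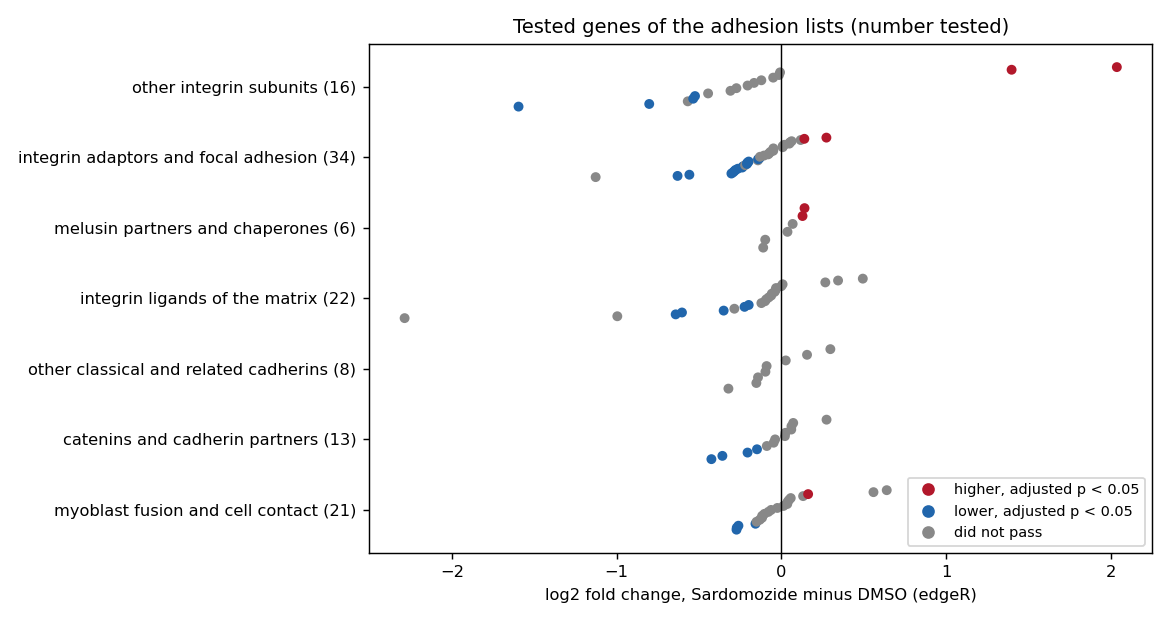
Log2 fold change (Sardomozide minus DMSO, edgeR) of each tested gene in 7 lists, with the number tested in brackets. Red and blue points passed at an adjusted p under 0.05, grey points did not, and in the focal adhesion list 14 of 34 points are blue and 2 red. Over all genes tested, 8.45% were lower and 7.88% higher.

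Markers of other cell states were measured beside these genes. Summed over 8 markers of proliferating or reserve myoblasts, levels were 360 to 383 CPM with DMSO and 387 to 425 CPM with Sardomozide, without overlap, and 1 of the 8, Mki67, rose (edgeR adjusted p = 0.0443). Pax7, the reserve cell gene, had 85.0 to 89.8 and 87.8 to 100.3 CPM and did not pass (edgeR adjusted p = 0.24). Of 10 myotube markers 1 rose, Myog, and 1 fell, Myh8, with overlap of the sums. Over all genes tested, 7.88% were higher and 8.45% lower. Fibroblast markers summed to 5032 to 6022 CPM with DMSO and 5449 to 5883 CPM with Sardomozide, nearly all from the collagen gene Col3a1, with Tcf21 at 0 counts in every library and Dcn lower (edgeR adjusted p = 0.00187). The endothelial list summed to at most 1.11 CPM and the neural list to at most 1.18 CPM, and the epithelial list to 7.27 to 8.83 CPM over both groups, with Krt14 lower (edgeR adjusted p = 0.0192). The part of these marker differences in the levels of Itga6, Itgb1bp2, Cdh15 and the other genes was not tested.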

How the data were processed

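For each of 6 libraries the authors deposited raw read counts for 24411 gene symbols, with no unassigned rows. STAR, StringTie and DESeq2 and the builds GRCm38 and mm10 are listed in the submitters' processing notes. The sources used here do not give versions, annotation, strand use or the handling of reads that match several places, so overlapping genes may share reads. Genes were filtered with filterByExpr (at least 10 scaled counts, 15 in total), scaled by TMM and fitted in edgeR 4.0.16 (R 4.3.3) with treatment as the single term and robust estimation. Quasi-likelihood p-values, two-sided, were adjusted by Benjamini-Hochberg over 13076 genes. Standard errors are the fold change over the root of the F statistic. CPM uses TMM-scaled library sizes, lengths and positions come from GENCODE M21, and promoter windows from RefSeq (GRCm38.p6).

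The genes and lists were chosen with earlier results of these data known. Named genes were all 10, up to 4 called genes of each of 7 lists with the smallest adjusted p (2 genes where 0 were called), and the 3 genes most correlated with the most changed of the 10, at a mean log2 CPM of at least 2. Genes outside this rule are marked as named after their values were seen, marker genes aside. Alternatives changed the scaling (RLE, upper quartile, none), the tool (DESeq2 1.42.0, or limma-voom in limma 3.58.1), the filter (none, or a mean CPM of at least 10), robust estimation, the replicate number as a block, and the libraries, leaving out each in turn. Values of 1 list gene are not reported here. The steps were run on simulated counts, and the condition set was that edgeR return a median close to the 2-fold changes put in. Recovery of smaller changes and the rate of false calls are not reported here. Chi-square values per degree of freedom between replicates were 5.45 to 6.88 for DMSO pairs and 9.06 to 16.1 for Sardomozide pairs. All lay above sampling noise. They were highest for pairs with Sardomozide replicate 2 (16.1 and 13.1). All 6 libraries were kept. The limit of 3 counts covers counting error only, since reads without molecular identifiers are not independent molecules.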

Additional observations from a re-analysis of the deposited data

How the results depend on the processing

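Itgb1bp2 and Itga6 kept their direction and call in each of 6 fits that left out a library and 9 other alternatives. Cdh15 passed with DESeq2 (log2 fold change −0.13), limma-voom (−0.13) and the stricter filter (−0.13). Over the fits that left out a library, log2 fold changes ran from −0.017 to 0.099 for Itga5, −0.22 to −0.14 for Itgav, −0.18 to −0.13 for Itgb5, 0.081 to 0.15 for Cdh2 and −0.16 to −0.11 for Cdh15. The log2 change of the Itgav to Itgb5 ratio ran from −0.049 to 0.00105, with the sign turned without Sardomozide replicate 2. In those fits 1 to 2 of the 10 genes were higher and 1 to 3 lower, against 620 to 927 higher and 706 to 1025 lower over all genes, fewest without DMSO replicate 1. These fits have fewer samples, and the cause of lost calls was not tested. Of 120 adhesion list genes tested, 7 were higher and 31 lower, against 7.88% and 8.45% of all genes tested. Leaving out a library gave 2 to 6 higher (2 without DMSO replicate 1, 3 without DMSO replicate 3) and 23 to 30 lower. At an unadjusted p under 0.05 by edgeR, 2 adaptor genes were higher and 19 lower of 34. Fusion and contact genes numbered 3 higher and 9 lower of 21, and other integrin genes 2 and 5 of 16. The share of all genes tested at that threshold is not given for any list.

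The replicate block gave 4 higher and 27 lower list genes (2 lower catenin genes, 1 higher adaptor gene) and 1820 genes called in all, with the same 4 of the 10 called. Same-numbered libraries had correlations of −0.023 to 0.022 in their deviations from the group means, and 0 of 3 correlated best with its own number. These values give no sign that the numbers pair the libraries. A weak pairing could be missed, since all tested genes counted equally, and the labels do not state one. Fusion and contact genes called higher numbered 3 with DESeq2 and 2 with limma-voom, with no filter and without robust estimation. Adaptor genes called higher numbered 1 with limma-voom and without robust estimation, where 1 melusin partner gene was higher. With no filter 1 other cadherin gene was lower. With the stricter filter 2 other integrin genes were lower and 0 higher, since low genes were not tested. Fold changes of Itgal, Itgam and Itgbl1 rest on few counts.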
